A study of Drosophila sechellia with 6 samples.

Results

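Among the genes that *D. sechellia* females expressed well on control food, a small group stood at no more than 0.5 of its control level after exposure to octanoic acid (OA). This group was defined from the deposited table of gene expression, in which protein-coding genes of the reference annotation mostly carry a GM number. A gene was included if the table flagged it as testable (status OK), if it had at least 50 FPKM in control (FPKM counts sequenced fragments relative to transcript length and library size), if it was above 0 FPKM in OA, if the ratio of OA to control was at most 0.5, and if it spanned fewer than 30000 bases. Of 16091 GM entries among the 17275 entries of the table, 3538 were well expressed by the first 3 of these conditions, and 52 of them met the ratio, or 1.47%. These are called the halved genes here. The bound on the span removed 0 genes. *CG9672* (GM13371), which the rule left out by name, was also below the control bound, with 49.1 FPKM (control) and 21.2 FPKM (OA). Because the genes were chosen on their group values, those values are given as a description without a test.

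The study sequenced polyadenylated RNA of whole adult females (strain 14021-0428.25) in 6 libraries, 3 for each food, control or with 0.7% OA. Each pooled 10 flies that had spent 24 hr on the food. The flies were collected at 0 to 3 d of age and are labelled as 1 to 4 d old, and they had been reared on cornmeal medium at 20° with 16 hr of light and 8 hr of darkness. Since the table gives each gene 1 FPKM value per food, the variation among the 3 libraries and the number of reads behind each gene's value are unknown, and no SD or test is given.

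OA is the medium chain fatty acid that makes the ripe fruit of *Morinda citrifolia* toxic to most fruit flies, and *D. sechellia* feeds and breeds on this fruit. In whole females of *Drosophila*, much of the RNA comes from the ovary, the fat body and the gut, and several gene families with short, strongly expressed genes, such as those of eggshell proteins and antimicrobial peptides, lie side by side in the genome. The table pairs GM numbers with FlyBase gene identifiers only, the tables of the paper name none of the 52 halved genes, and the reference gene table, which was made for another assembly, matched 0 of them. Therefore no name or function is given to a halved gene, GM numbers are printed for 2 of them, and the others are identified by their scaffold and position in the GCA_000005215.1 assembly. Since whole flies were measured, fewer cells of a type and less RNA per cell cannot be told apart.

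The tissue label was examined with marker genes that the table names. The yolk protein gene *Yp2*, expressed in the fat body and ovary of females, had 11392 FPKM on control food and 15455 FPKM on OA food, and the eggshell gene *Vm32E* was at 984 and 718 FPKM. The male accessory gland genes *Acp26Aa* and *Acp70A* were listed at 0 in both groups, and *Acp36DE* stood at 0.044 and 0.063 FPKM. *Est-6*, which had been placed in the same list of male markers, went the other way, at 53.4 FPKM (control) and 48.0 FPKM (OA).

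The halved genes covered a wide range of expression. In control they lay between 54.1 and 9309 FPKM with a median of 226 FPKM, and in OA between 1.50 and 3546 FPKM with a median of 63.5 FPKM. The other 3486 well-expressed genes had a median of 111 FPKM in both groups. The share of halved genes was 0.955% of 1570 genes from 50 to below 100 FPKM in control, and 3.27% of 275 genes at 1000 FPKM or more. In the classes between, it was 1.24%, 2.01% and 2.44% in rising order of level. Genes at a ratio of at least 2 made up 0.191% of the lowest class, 0.364% of the highest and at most 1.34% between. Control FPKM is itself part of the ratio. Added together, the FPKM of the halved genes went from 47804 in control to 16291 in OA, which is 2.65% of the summed FPKM of all GM entries in control and 0.911% in OA. Most of this sum came from few genes, because the 9 genes at 1000 FPKM or more in control made up 78.6% of it, and 15 genes were below 100 FPKM in control. In OA, 23 of the 52 genes were below 50 FPKM.

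**Figure D1:**
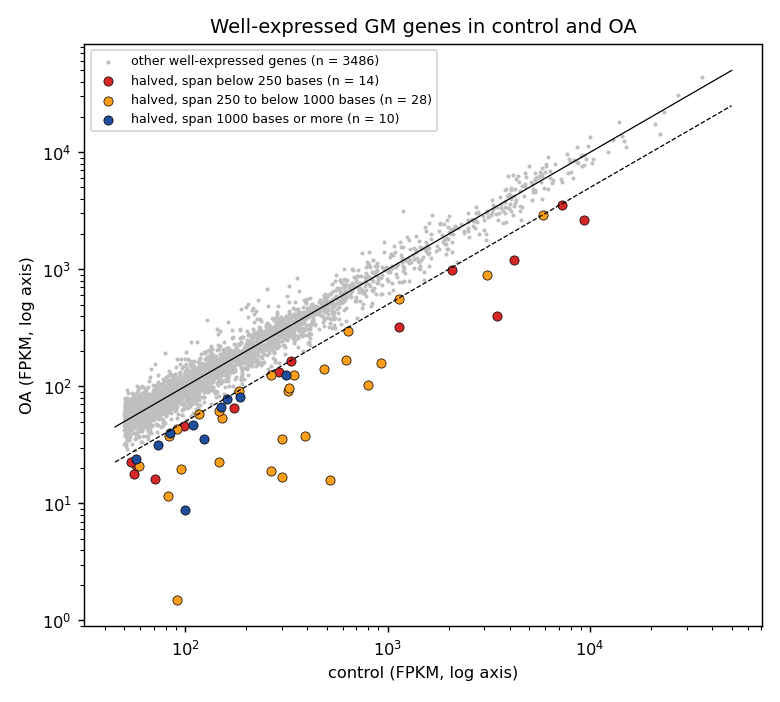
Control FPKM (x axis) against OA FPKM (y axis) for the 3538 well-expressed GM genes, both on log axes, 1 point per gene. The solid line marks equal levels and the dashed line a ratio of 0.5. The 52 halved genes, coloured by span, lie on or below the dashed line by the rule that chose them, from 54.1 to 9309 FPKM in control.

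The gene with the highest control level was GM21566 (scaffold 1, 8153355 to 8153549), with 9309 FPKM on control food and 2613 FPKM on OA food. It was followed by a gene of 159 bases on the same scaffold (8776085 to 8776243), at 7248 and 3546 FPKM, and by a gene on scaffold 3 (3892187 to 3892539), at 5877 and 2901 FPKM. A gene on scaffold 2 (3360865 to 3361083) went from 4226 to 1199 FPKM. The fifth, on scaffold 9 (2769436 to 2769645), went from 3455 to 399 FPKM, which is the lowest ratio among these 5, at 0.116. The second and the third, in contrast, lay close to the bound that defined the group, with ratios of 0.489 and 0.494.

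The lowest ratio of OA to control was that of GM25530 (scaffold 0, 7611596 to 7611868), which went from 91.2 to 1.50 FPKM, a ratio of 0.016. A gene on scaffold 1 (13969490 to 13969948) went from 519 to 15.9 FPKM. Its neighbour in rank, also on scaffold 1 (8154789 to 8155509), went from 299 to 16.8 FPKM. A gene on scaffold 0 (997773 to 998474) had 266 and 18.9 FPKM. The fifth lowest ratio, 0.088, belonged to the halved gene with the longest span, on scaffold 9, which went from 99.8 to 8.81 FPKM. Apart from these, only 1 further gene had a ratio of at most 0.1, and it lies in the same cluster as the gene at 266 FPKM on scaffold 0.

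Over the whole group, the median ratio was 0.360, and the quartiles were 0.223 and 0.457. The median change was -1.46 on the log2(FPKM + 1) scale, against -0.0055 over all 3538 well-expressed genes and 0.064 over the 11075 GM genes with status OK and FPKM above 0 in both groups. The ratio was at most 0.1 in 6 genes, above 0.1 and up to 0.2 in 6, above 0.2 and up to 0.3 in 11, above 0.3 and up to 0.4 in 7 and above 0.4 in 22. The genes near the bound were thus more numerous than those far from it. Within the group, the ratios showed little rank correlation with level or span. The rule bounds both the ratio and the control level, so these correlations cannot show whether being halved went with level or span. Across the 52 genes, Spearman's rho of the ratio was -0.064 with control FPKM, which is itself part of the ratio, and 0.008 with span. Genes are not independent replicates, so both are given without a p-value.

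**Figure D2:**
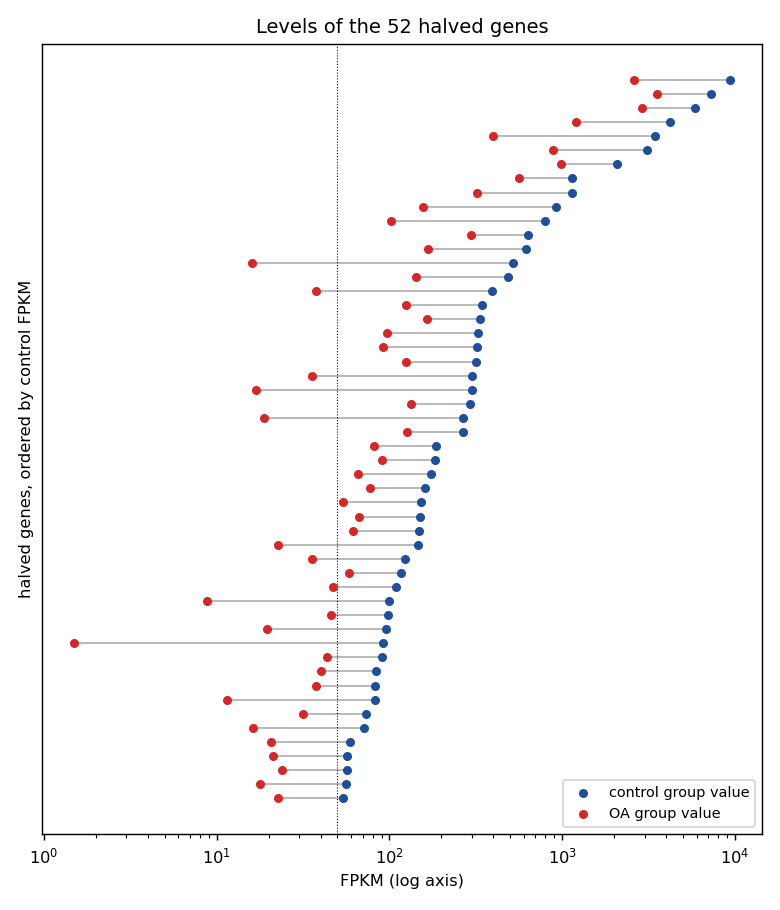
FPKM on a log axis for each of the 52 halved genes, 1 row per gene in order of control level, with the control value in blue and the OA value in red. The dotted line marks the control bound of 50 FPKM. The gene with the longest line is GM25530, from 91.2 to 1.50 FPKM.

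The values at the edges of the rule show how the group was delimited. Just inside the bound on the ratio were a gene on scaffold 2776 (1010 to 1476), from 117 to 58.2 FPKM, with a ratio of 0.499, and the gene on scaffold 3 at 5877 FPKM. Just outside it were a gene on scaffold 1 (619910 to 620832), from 56.6 to 28.4 FPKM, with a ratio of 0.501, and another on scaffold 1 (11749287 to 11749486), from 6989 to 3510 FPKM, with a ratio of 0.502. Just inside the control bound were genes on scaffold 6196 (1653 to 1865), at 54.1 and 22.6 FPKM, and on scaffold 8 (294064 to 294234), at 55.8 and 17.8 FPKM. Below it came *CG9672* and a gene on scaffold 0 (1858987 to 1905672), at 48.0 and 15.8 FPKM. The gene on scaffold 0, with 46686 bases, was also past the bound on the span. The condition that OA be above 0 removed 1 gene, of 195 bases on scaffold 3, which had 62.5 FPKM in control and was listed at 0 in OA.

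Which direction is more frequent depends on where the level is required. With the bound of 50 FPKM placed on control, as in the rule, 52 genes were at a ratio of at most 0.5 and 18, or 0.509%, were at a ratio of at least 2. With the same bound placed on OA instead, 29 of 3626 genes, or 0.8%, were at most at 0.5 and 39, or 1.08%, at least at 2. With the bound on the mean of both groups, these were 44 and 29 of 3601 genes, or 1.22% and 0.805%. Without any bound on level, 271 of 11075 genes, or 2.45%, and 273, or 2.47%, lay past the respective ratios. The predominance of halved over doubled genes among well-expressed genes was therefore present with the bound on control and on the mean, and not with the bound on OA.

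The halved genes had shorter spans than most well-expressed genes, but not shorter than the doubled ones. The span of a gene is the length of its listed locus, which can be a merged region, longer than the gene, where entries overlap. It had a median of 463 bases in this group and quartiles of 238 and 908 bases, against a median of 1197 bases over the other well-expressed genes. Spans under 500 bases were found for 29 of the 52 genes, or 55.8%, and for 17.9% of the others. The 18 doubled genes had a median span of 173 bases, and 61.1% of them were under 250 bases, against 26.9% of the halved genes. Among spans under 1000 bases, 26 of 42, or 61.9%, were a whole number of codons, as in an annotated coding region without intron, against 56.0% of 1498 other well-expressed genes.

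The share of halved genes was lower in each longer class of span. It was 8.28% of 169 genes under 250 bases, 3.11% of 483 genes from 250 to below 500 bases, 1.46% of 888 genes from 500 to below 1000 bases and 0.742% of 944 genes from 1000 to below 2000 bases. Beyond 2000 bases there were 3 halved genes, and beyond 30000 bases, where the rule allowed none, the lowest ratio was 0.520. Doubled genes were distributed differently over the classes. Under 250 bases, 11 genes were doubled beside 14 that were halved, whereas from 250 to below 1000 bases 2 genes were doubled and 28 halved. With the bound of 50 FPKM on OA, these counts were 21 doubled and 9 halved under 250 bases, and 9 doubled and 16 halved from 250 to below 1000 bases. The median ratio of all well-expressed genes also changed with span, from 0.905 under 250 bases to 1.07 from 5000 to below 30000 bases. When each ratio was divided by the median of its span class, a setting added after the data were seen, 43 genes were at most at 0.5 and 25 at least at 2. Short transcripts yield few fragments for a given FPKM and depend most on the length correction. The part of either in the ratios was not tested.

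**Figure D3:**
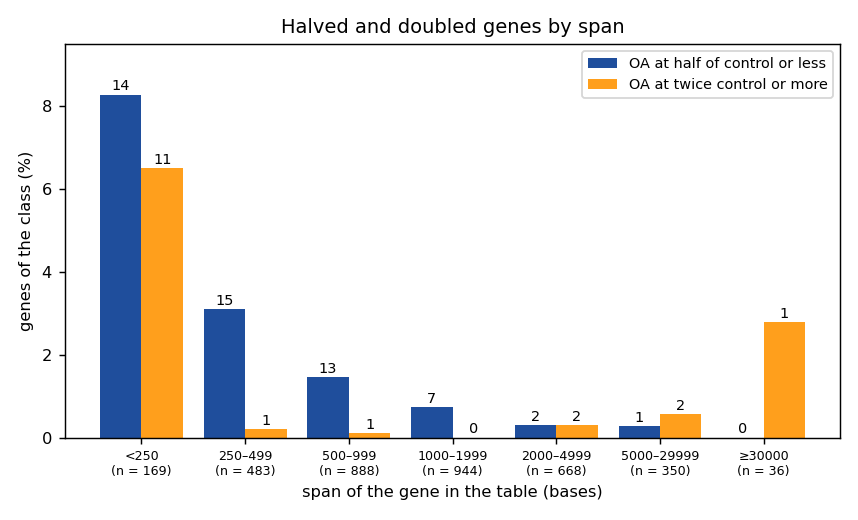
Percentage of well-expressed GM genes (y axis) with an OA level of at most 0.5 of control (blue) and at least 2 times control (orange) in classes of gene span in bases (x axis). Numbers above the bars count genes, and n is the number of genes in the class. Halved and doubled genes are about as numerous under 250 bases (14 and 11), and halved genes outnumber doubled ones from 250 to below 1000 bases (28 and 2), all with the bound of 50 FPKM on control. With the bound on OA the counts are 9 halved and 21 doubled under 250 bases, and 16 and 9 from 250 to below 1000 bases.

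Short halved genes were not uniformly weak or strong. The 14 under 250 bases ranged from 54.1 to 9309 FPKM in control, 6 of them at 1000 FPKM or more, and had a median ratio of 0.373. The 10 genes of 1000 bases or more ranged from 57.2 to 315 FPKM in control, with a median ratio of 0.431. The longest of these spans, from 1384090 to 1410310 on scaffold 9, is not that of 1 gene. The table lists 5 other entries at the same coordinates, 4 GM genes and a snoRNA gene, so the span is that of a merged region in which entries can share reads. In this region, the halved gene was at 99.8 and 8.81 FPKM, another GM gene at 382 and 201 FPKM, one more at 78.0 and 85.1 FPKM, and the snoRNA gene at 1037 and 296 FPKM, control first. It was the only halved gene that overlapped another entry, whereas 239, or 6.86%, of the other well-expressed genes did.

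The halved genes lay on 18 of the 182 scaffolds with a well-expressed gene. Scaffold 1 held 16 of them, or 3.07% of its 521 well-expressed genes, and scaffold 0 held 12, or 1.78% of 673. Elsewhere they made up 1.02% of 2344 genes. Higher shares were those of scaffold 2 with 1.94% (4 of 206), scaffold 9 with 2.38% (3 of 126) and scaffold 11 with 3.85% (3 of 78), among others. Lower shares included 0.881% on scaffold 3 (2 of 227) and 0.633% on scaffold 4 (1 of 158). Small scaffolds also contributed. Of 104 scaffolds with a single well-expressed gene, 3 had a halved gene as that gene, or 2.88%, on scaffolds 2776, 6196 and 8262. The gene on scaffold 8262 (1174 to 1380) went from 98.1 to 46.1 FPKM. The files used here do not pair scaffolds with chromosome arms.

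Part of the group lay in clusters. With a gap of at most 20000 bases between spans, 14 of the 52 genes, or 26.9%, had another halved gene nearby, in 6 groups, and 38 had none. Of the other well-expressed genes, 91, or 2.61%, lay within the same distance of a halved gene. Genes are not replicates, so this contrast is a description.

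The tightest group of at least 3 was on scaffold 0, within 5639 bases from 997773 to 1003411. Its 3 genes were at 266, 925 and 390 FPKM in control and at 18.9, 157 and 37.7 FPKM in OA, so that their sum in OA was 0.135 of that in control. Another gene between the first and the second (999465 to 999871) had the highest level of the group, from 3061 to 1789 FPKM, a ratio of 0.584. The flanking genes were closer to their control levels. The next well-expressed gene downstream (1004483 to 1015708) went from 280 to 389 FPKM, and the nearest upstream (991345 to 991936) was at 53.7 and 46.7 FPKM.

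The other group of 3, on scaffold 1 from 6786719 to 6818703, was spread over 31985 bases. Its genes went from 315 to 124, from 620 to 167 and from 636 to 297 FPKM. The 2 other genes between them were not well expressed, at 0.185 FPKM or less in either group. One more halved gene lay farther along the same scaffold (6840887 to 6841669), beyond the distance used, at 184 and 90.5 FPKM.

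On the same scaffold, 2 halved genes lay next to each other from 8153355 to 8155509. One was GM21566, the gene with the highest level in control, and the other went from 299 to 16.8 FPKM, a ratio of 0.056 against 0.281 for GM21566. The 2 well-expressed genes that follow them first, which share 1 locus (8156012 to 8158713), were at or above control, with ratios of 1.00 and 1.40. The next well-expressed gene (8162159 to 8162580) was below control, at 618 and 552 FPKM, a ratio of 0.893.

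A longer run of lower levels was seen on scaffold 1 from 11745174 to 11753227. It consisted of 8 short genes with spans of 192 to 523 bases and 326 to 6989 FPKM in control. The first and the seventh were halved, from 326 to 96.9 FPKM and from 1134 to 320 FPKM. The other 6 had ratios from 0.502 to 0.892, and the sum over the run went from 18030 to 10692 FPKM. The run was ended, after its values were seen, before the first gene at or above control (11756358 to 11757807, 33.2 and 34.5 FPKM). That all genes of the run were below control therefore follows partly from how it was delimited. The fifth gene of the run, at 6989 FPKM, is the one that missed the bound with a ratio of 0.502.

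In a further pair on scaffold 1, from 13969490 to 13981976, genes between the halved ones did not share their lower level. The halved genes went from 519 to 15.9 FPKM and from 95.5 to 19.5 FPKM, while the 2 well-expressed genes between them were at 342 and 464 FPKM (13976342 to 13976605) and at 999 and 798 FPKM (13977484 to 13978282). The last pair, on scaffold 2 from 5522313 to 5526627, comprised longer genes that lay 375 bases apart, with spans of 2386 and 1554 bases. They had close values in both groups, 161 and 150 FPKM in control and 77.7 and 66.6 FPKM in OA. The flanking genes were below the control bound. The next gene downstream (5528036 to 5529035) went from 0.167 to 17.5 FPKM, and the nearest upstream (5520032 to 5521384) from 10.8 to 7.13 FPKM.

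**Figure D4:**
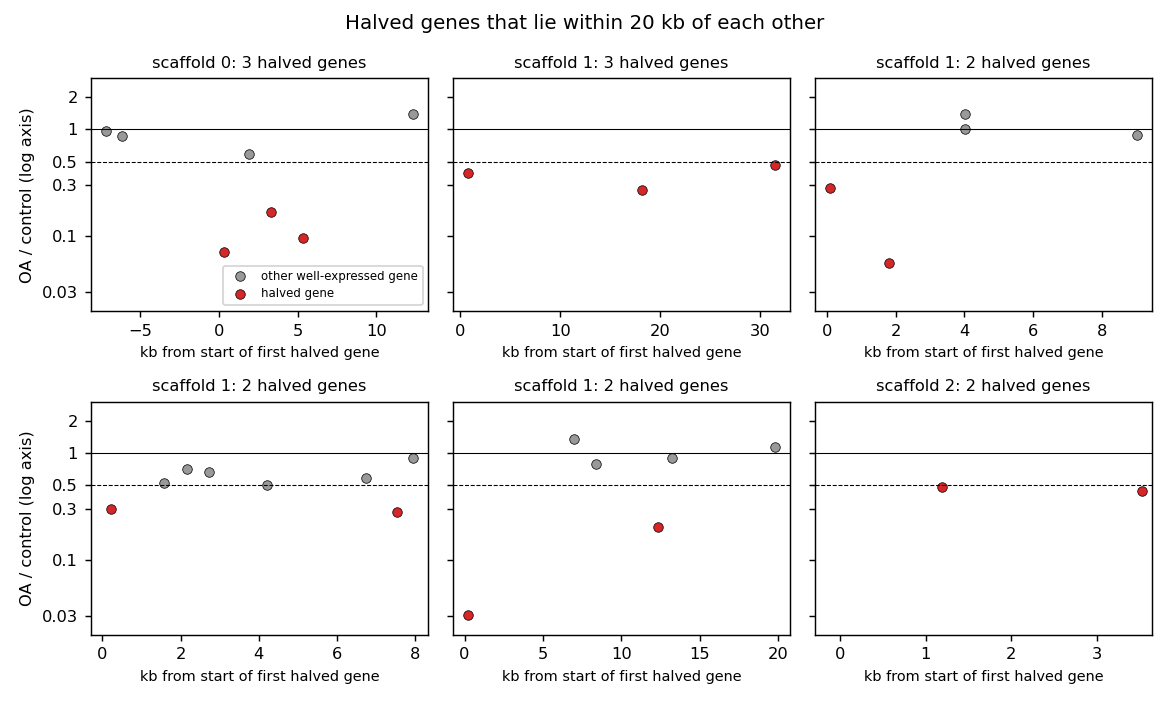
Ratio of OA to control (log axis) for well-expressed GM genes in and within 10 kb of the 6 groups of neighbouring halved genes, plotted at the middle of each gene as distance in kb from the start of the first halved gene. Red points are halved genes, grey points other well-expressed genes, and the lines mark ratios of 1 (solid) and 0.5 (dashed). In the run of 8 genes (lower left), which was ended before the first gene at or above control, the ratios lie from 0.282 to 0.892. In contrast, 2 groups, the spread-out one on scaffold 1 and the pair on scaffold 2, have no other well-expressed gene in the window.

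Well-expressed genes near a halved gene were somewhat lower in OA than those elsewhere. Of the 91 such genes, 57, or 62.6%, were below control, with a median change of -0.084 on the log2(FPKM + 1) scale, against 49.7% and 0.0015 for the 3395 others. A ratio of at most 0.75 was found for 16 of the 91, or 17.6%, and for 8.34% of the others. Without the 6 genes of the run on scaffold 1, a choice made after the data were seen, 51 of 85 were below control, or 60.0%, with a median of -0.058.

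Coding genes that the table lists under other names were compared by the same rule, because they are the ones with known functions. Of 101 well-expressed entries, 5, or 4.95%, were at a ratio of at most 0.5 and 1, or 0.99%, at a ratio of at least 2. All 5 belong to families of short secreted peptides, with spans of 250 to 476 bases. They are the antimicrobial peptide genes *CecA1* and *CecC*, and the stress peptide genes *TotC* and *TotA1*, the latter listed at 2 loci that can share reads. Both well-expressed antimicrobial peptide genes and all 3 well-expressed Turandot entries were thus at 0.5 of control or lower. In contrast, 0 of 5 maltase and amylase genes, 0 of 4 ribosomal protein genes, and neither the eggshell gene *Vm32E*, the yolk protein gene *Yp2* nor the glutathione transferase gene *GstD1* were past either ratio. *Vm32E* was the only eggshell gene available by name, so it does not stand for eggshell genes as a family. By its own tests, the paper reports the chorion genes *Cp16*, *Cp18* and *Cp19* as downregulated in OA, and also *AttA*, *AttC* and *Def*. The list medians were -2.39 for antimicrobial peptides, -1.08 for Turandot, -0.57 for maltases and amylases and -0.18 for ribosomal proteins on the log2(FPKM + 1) scale. The table names no cuticle, peritrophin or serine protease gene of these lists, and whether any halved GM gene belongs to one of them is not given in the sources used here.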

How the data were processed

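The authors aligned single-end reads with Bowtie2 to the Ensembl assembly GCA_000005215.1 and quantified genes in Cuffdiff (Ensembl annotation 34), correcting for transcript length and sequence bias and normalizing libraries geometrically. FastQC, Bowtie2 and Cuffdiff are named in the submitters' processing notes, and their versions are not given in the sources used here. The authors deposited FPKM values, 1 per gene and group, without values per library. Their fold changes, test statistics, p-values and q-values stand in the same table and were not used. The number of reads behind each gene's value is unknown.

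From the FPKM values, the ratio of OA to control was computed without a pseudocount, and log2 changes with a pseudocount of 1. Positions, deposited as counted from 0, are printed as counted from 1. Neighbours were counted within 20000 bases. The functions were tested on simulated data. The members and gene lists were chosen with earlier results of these data known. The genes described were all those in groups of at least 3, the 5 with the highest control level, the 5 with the lowest ratio and the 2 nearest to each bound, and the pairs were added after their values were seen. Sequences were not used here. Computation used SciPy 1.17.1, Matplotlib 3.10.9, pandas 2.3.3 and NumPy 2.4.6 under Python 3.11.15.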

Additional observations from a re-analysis of the deposited data

How the results depend on the processing

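No paired analysis was possible because single libraries have no column in the deposited table, and fits without each replicate were not run either. The number of halved genes, 52, became 30 with a bound of 0.4 and 101 with a bound of 0.6 on the ratio, 85 with a control bound of 20 FPKM and 267 without a control bound (of the 271 at any span, before GM13371 is left out), by construction. With the bound of 50 FPKM on OA, a setting added after the data were seen, it became 29 and the share of 1.47% became 0.80%. The median log2 change of -1.46 became -1.38 with a pseudocount of 5. At 10000 bases, 9 genes had a halved neighbour in place of 14, and 1 group of at least 3 was left in place of 2. Rescaling both groups to the same summed FPKM, centring on the median ratio and taking the ratio of FPKM + 1 each gave 51 genes, all protein-coding entries gave 57, any status gave 52, a control bound of 100 FPKM gave 37, and leaving out spans under 250 bases, added after the data were seen, gave 38. Without values per library, a ratio near 0.5 cannot be separated from the spread between libraries.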
